A study of Rattus norvegicus with 50 samples.

Results

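Lcn2, Havcr1, Clu and Vim are 4 genes long used to read injury of the kidney tubule, and their transcripts were followed in cortex and medulla of ZSF1 rats. The genes were taken by their Ensembl gene IDs, ENSRNOG00000013973 (Lcn2), ENSRNOG00000007243 (Havcr1), ENSRNOG00000016460 (Clu) and ENSRNOG00000018087 (Vim), and all 4 were found among the 32545 IDs measured. No measured value entered that choice, although earlier results of these data were known when the genes were put together. The study sequenced total RNA, depleted of ribosomal RNA, from 50 libraries in 10 groups of 5. In each tissue 1 group was lean and received vehicle, and 4 groups were obese and received vehicle, MK-8722 at 1 mpk, MK-8722 at 10 mpk, or the comparator enalapril at 10 mpk (mpk is the labels' own dose unit). Treatment lasted 28 weeks in every group, and the labels give an age of 20 weeks, whose time point is not stated. All rats were of the ZSF1 strain. Obese ZSF1 rats carry defective leptin receptor alleles from both parents and develop diabetes, high blood pressure and progressive kidney disease, whereas their lean littermates serve as controls. No lean group received a drug, so the drugs were compared within obese rats only. Enalapril inhibits angiotensin-converting enzyme and served as the comparator. MK-8722 directly activates AMP-activated protein kinase, in the series' title as a pan-AMPK activator. The labels tie no library to an animal, and the p-values given here therefore reflect only how much these libraries vary, part of which may be technical.

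Tubule cells that are damaged lose parts of their specialised program and switch on genes that are nearly silent in the healthy kidney. Lcn2 encodes lipocalin-2, or neutrophil gelatinase-associated lipocalin, a secreted protein that binds iron-carrying siderophores and is made by stressed cells of the distal nephron and collecting duct. Clu encodes clusterin, a secreted chaperone that binds misfolded proteins and cell debris. Havcr1 encodes kidney injury molecule-1, a membrane protein of injured proximal tubule cells that recognises phosphatidylserine and lets them take up dead cells, and its outer part is shed into urine. Vim encodes vimentin, an intermediate filament protein of mesenchymal cells that dedifferentiated tubule cells also express. Lcn2, Clu and Havcr1 are read from different segments or cell states, so the 4 genes need not move by the same amount.

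The stretches just before the start sites of Lcn2, Havcr1 and Vim are shown because the transcripts moved together across the obese libraries, and a reader can compare what lies upstream of each. They are the 250 bases before the start in RefSeq for the rat build GRCr8, at chr3:36081781-36082030 on the minus strand for Lcn2, chr10:31629528-31629777 on the plus strand for Havcr1 and chr17:81577011-81577260 on the plus strand for Vim, each written 5′ to 3′ along the gene. Of the 4 symbols, 3 matched an entry, and Clu is named only. Capitals mark matches to a motif.
Lcn2: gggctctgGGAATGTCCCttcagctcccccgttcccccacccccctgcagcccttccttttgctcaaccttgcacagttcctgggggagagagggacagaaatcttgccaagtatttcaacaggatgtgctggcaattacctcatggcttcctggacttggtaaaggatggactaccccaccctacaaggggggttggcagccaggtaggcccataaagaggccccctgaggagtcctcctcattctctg
Havcr1: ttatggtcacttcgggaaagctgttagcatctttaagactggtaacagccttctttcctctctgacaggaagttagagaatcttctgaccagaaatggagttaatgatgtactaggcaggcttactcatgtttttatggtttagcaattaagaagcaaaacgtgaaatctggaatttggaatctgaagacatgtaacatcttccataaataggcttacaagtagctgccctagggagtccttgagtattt
Vim: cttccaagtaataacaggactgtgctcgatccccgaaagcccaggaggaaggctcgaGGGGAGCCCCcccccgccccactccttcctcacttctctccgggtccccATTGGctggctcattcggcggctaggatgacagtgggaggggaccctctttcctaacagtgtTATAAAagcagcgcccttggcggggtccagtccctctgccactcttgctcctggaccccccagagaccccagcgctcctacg

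Both strands were searched for the TATA box motif (letters TATAAA), for the motif bound by nuclear factor Y (letters CCAAT), for the motif of the AP-1 factors (letters TGANTCA), for the motif of the STAT factors (letters TTCNNNGAA), and for the NF-kB motif, given by name alone. The Lcn2 stretch held 1 match, to the NF-kB motif, at 242 to 233 bases before the start on the minus strand. The Vim stretch held a match to the NF-kB motif at 193 to 184 bases before the start and to the nuclear factor Y motif at 144 to 140, both read on the minus strand, and to the TATA box motif at 82 to 77 on the plus strand. None of the motifs was found in the Havcr1 stretch. Of 33469 rat stretches of the same length, 3.54% held the NF-kB motif, 34.0% the nuclear factor Y motif, 12.9% the TATA box motif, 6.34% the AP-1 motif and 7.67% the STAT motif. The printed matches do not overlap one another. The matches are letters in a window and say nothing of what binds there.

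Expression is given as FPKM, a level corrected for transcript length and for the size of the library. Absolute depth is unknown. Relative depth, read from the steps of low values, ran from 0.596 to 1.52 over the 50 libraries, and the 6 most abundant IDs held 39.1% to 66.2% of a library's summed FPKM. The mean share in cortex was 61.2% in lean, 52.6% in obese vehicle, 61.2% with enalapril, and 55.1% and 62.4% at MK-8722 1 and 10 mpk. The medulla means were 61.9%, 54.0%, 56.9%, 57.3% and 57.6% in that order, and the part of this share in the results was not tested. Lean cortex had a relative depth of 1.35 ± 0.0807 and obese vehicle cortex of 1.02 ± 0.212, and the medulla groups had 1.12 ± 0.0761 and 0.723 ± 0.0812 (SD, n = 5). In cortex it was 1.24 ± 0.165 with enalapril and 1.34 ± 0.193 with MK-8722 at 10 mpk, so it moved with the drug groups as well, and its part in the results was not tested beyond the fits that carry it as a term. Cell type markers could not be read, because the table gives IDs without names and the reference given here pairs none of those IDs with a symbol. In these bulk samples a change in the number of cells of a type and a change in RNA per cell cannot be told apart.

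**Figure D1:**
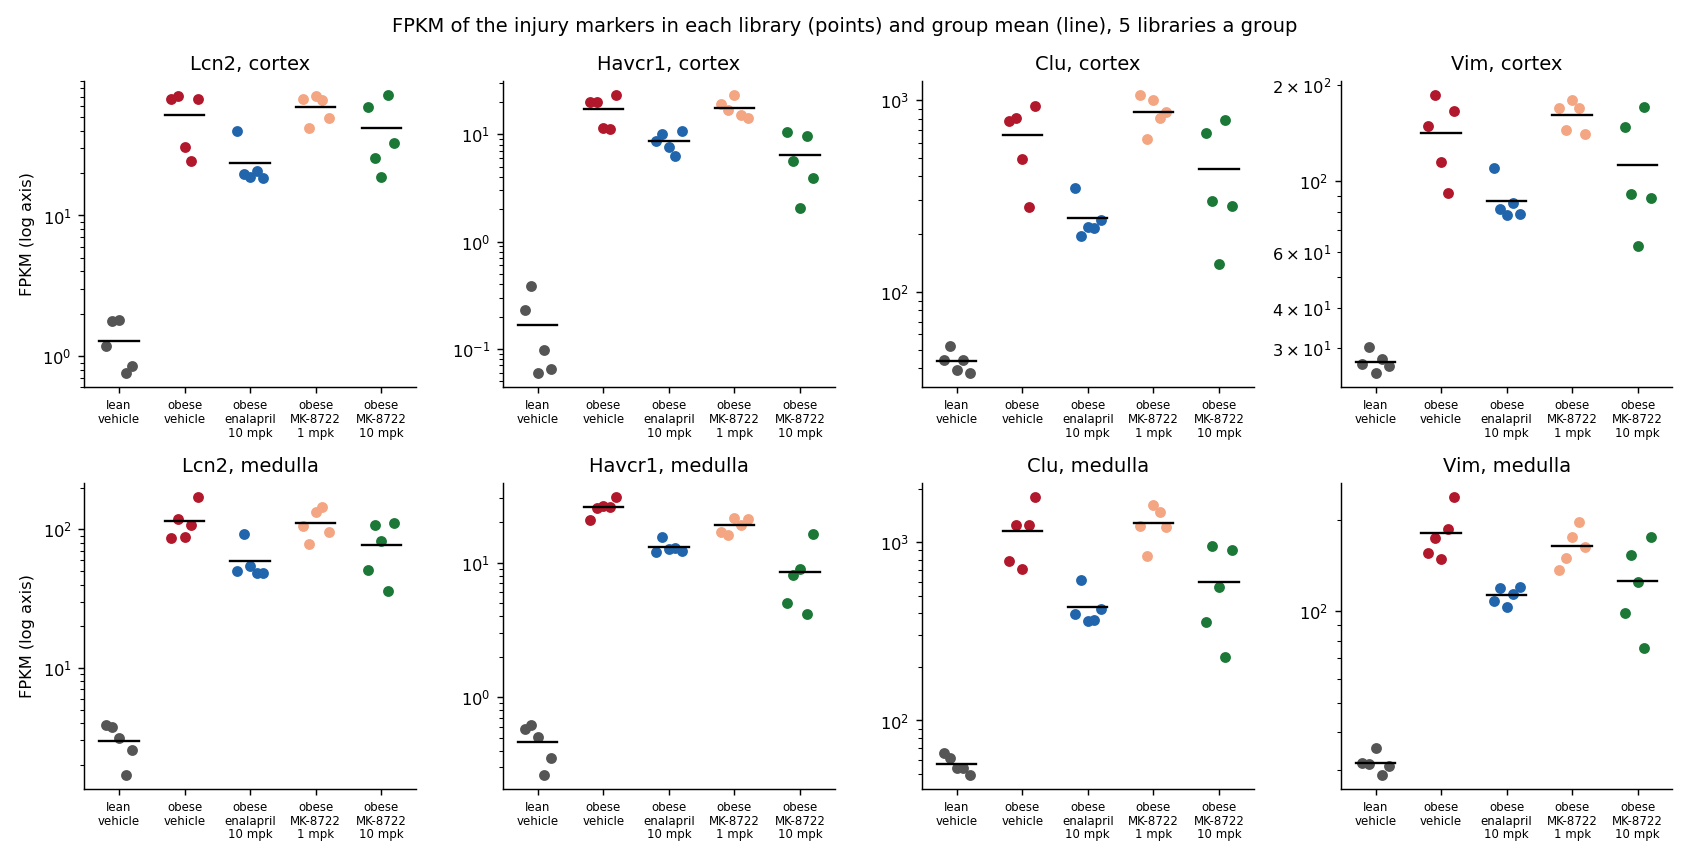
FPKM of Lcn2, Havcr1, Clu and Vim (log axis) in each of the 50 libraries, by tissue and group, with points for libraries and bars for group means. Every obese library lies above every lean library of its tissue for all 4 genes, and Havcr1 in the 5 cortex libraries of MK-8722 10 mpk (2.07 to 10.6 FPKM) lies below the 5 obese vehicle libraries (11.3 to 23.1 FPKM).

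In obese rats all 4 transcripts were far higher than in lean rats, in both tissues and without overlap between the groups. Lcn2, the secreted lipocalin, measured 1.17, 1.77, 1.80, 0.753 and 0.853 FPKM in the lean cortex libraries, a mean of 1.27 ± 0.496 (SD, n = 5). In obese vehicle cortex it measured 67.0, 70.4, 30.6, 24.6 and 67.4 FPKM, a mean of 52.0 ± 22.4, which is 40.9 times the lean mean. The lowest obese library thus stood well above the highest lean one, while 3 obese libraries held 67.0 FPKM or more and 2 held 30.6 or less. In medulla Lcn2 rose from 1.68 to 3.86 FPKM in lean libraries to 86.3, 118, 87.8, 108 and 172 FPKM in obese vehicle libraries, or 38.3 times by the means. The log2 differences were 4.81 ± 0.350 in cortex and 5.04 ± 0.281 in medulla (SE; limma, adjusted p = 1.06e-09 and 2.81e-12).

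Clu, the secreted chaperone, was already well expressed in lean kidney and reached the highest level of the 4 genes. The lean cortex libraries held 44.2, 52.2, 39.3, 44.3 and 37.5 FPKM, against 776, 808, 494, 276 and 932 FPKM in the obese vehicle libraries. The group means were 43.5 ± 5.71 and 657 ± 267 (SD, n = 5), a ratio of 15.1. Ordered by group mean, Clu moved from rank 1160 of 21563 expressed IDs in lean cortex to rank 51 of 23005 in obese vehicle cortex, and from rank 867 to rank 26 in medulla. The medulla means were 57.1 ± 6.47 and 1160 ± 443 FPKM, a ratio of 20.3. On the log2 scale Clu differed by 3.79 ± 0.362 in cortex and 4.26 ± 0.311 in medulla (SE; limma, adjusted p = 2.96e-08 and 1.38e-10).

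Havcr1, the phosphatidylserine receptor of injured proximal tubule cells, was close to silent in lean rats. Lean cortex libraries held 0.229, 0.382, 0.0589, 0.0967 and 0.0646 FPKM, and lean medulla libraries 0.263 to 0.620 FPKM. Obese vehicle cortex held 20.0, 19.9, 11.5, 11.3 and 23.1 FPKM, a mean of 17.1 ± 5.42, and obese vehicle medulla 20.9, 25.6, 26.5, 25.8 and 30.9 FPKM, a mean of 26.0 ± 3.57 (SD, n = 5). No lean library reached 1 FPKM, so Havcr1 entered the tests only through its obese libraries, and its ratio of means (103 in cortex, 56.2 in medulla) rests on very low lean values. Its log2 difference was 4.69 ± 0.297 in cortex and 4.79 ± 0.217 in medulla (SE; limma, adjusted p = 1.21e-10 and 6.82e-14), on a scale with 0.5 FPKM added that understates the change of so low a gene. Because Havcr1 entered through its high obese values, these p-values are not separate support for the rise. Across the alternative settings the difference ran from 4.10 to 6.10 in cortex and from 4.40 to 5.57 in medulla.

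Vim, the intermediate filament gene, changed least of the 4 on the log2 scale. Lean cortex libraries lay between 24.9 and 30.1 FPKM and obese vehicle cortex libraries between 91.9 and 186 FPKM, with means of 27.2 ± 1.95 and 141 ± 38.0 (SD, n = 5). Medulla means were 31.8 ± 2.41 and 181 ± 35.5 FPKM. The ratio of means was 5.21 in cortex and 5.69 in medulla, and the log2 differences were 2.32 ± 0.203 and 2.47 ± 0.161 (SE; limma, adjusted p = 5.88e-09 and 9.41e-12).

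These 4 rises stood in a comparison in which most genes were higher in obese rats, so the calls alone do not set the genes apart. Of all genes tested, 54.3% were called higher in cortex and 56.8% in medulla, and the groups did not overlap, with obese higher, for 36.4% and 45.7%. The middle gene of the table was shifted by 0.30 (log2) in cortex and by 0.37 in medulla. After each library was rescaled by its median ratio the calls were split evenly, with 3024 genes up and 3184 down in cortex and 3672 and 3944 in medulla, and the members' cortex differences were 4.50 for Lcn2, 4.48 for Havcr1, 3.43 for Clu and 1.96 for Vim. By absolute log2 difference Lcn2, Havcr1 and Clu ranked 3, 4 and 8 of 13579 genes in cortex and 2, 6 and 12 of 14195 in medulla, while Vim ranked 142 and 153. These ranks belong to the main fit, with 0.5 FPKM added, and were not taken under other settings. Lean values were low for Havcr1, and for Lcn2 in cortex (0.753 to 1.80 FPKM), so their places may depend on the amount added. When relative depth was a term, the members' cortex differences were 4.24 for Lcn2, 4.10 for Havcr1, 3.21 for Clu and 1.97 for Vim, all still called. All 4 members also stayed called above lean in every drug group of both tissues, under each alternative run and without each library in turn.

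No treatment brought the genes back to lean levels, and no treated library overlapped a lean one. Under enalapril the log2 differences from lean were 3.74 for Lcn2, 3.78 for Havcr1, 2.45 for Clu and 1.65 for Vim in cortex, where 20.8% of genes were called higher and 22.3% did not overlap. The medulla values were 4.08, 3.82, 2.88 and 1.81, with 40.2% called and 27.3% not overlapping. Under MK-8722 at 10 mpk they were 4.44, 3.19, 3.05 and 1.93 in cortex (27.9% and 18.6%) and 4.40, 3.09, 3.19 and 1.91 in medulla (36.6% and 21.6%). Under 1 mpk they were 5.08, 4.77, 4.29 and 2.54 in cortex (55.6% and 41.9%) and 5.02, 4.34, 4.45 and 2.34 in medulla (52% and 39.9%). Havcr1 thus stood nearest to lean at 10 mpk of MK-8722, and Lcn2, Clu and Vim stood nearest to lean under enalapril.

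**Figure D2:**
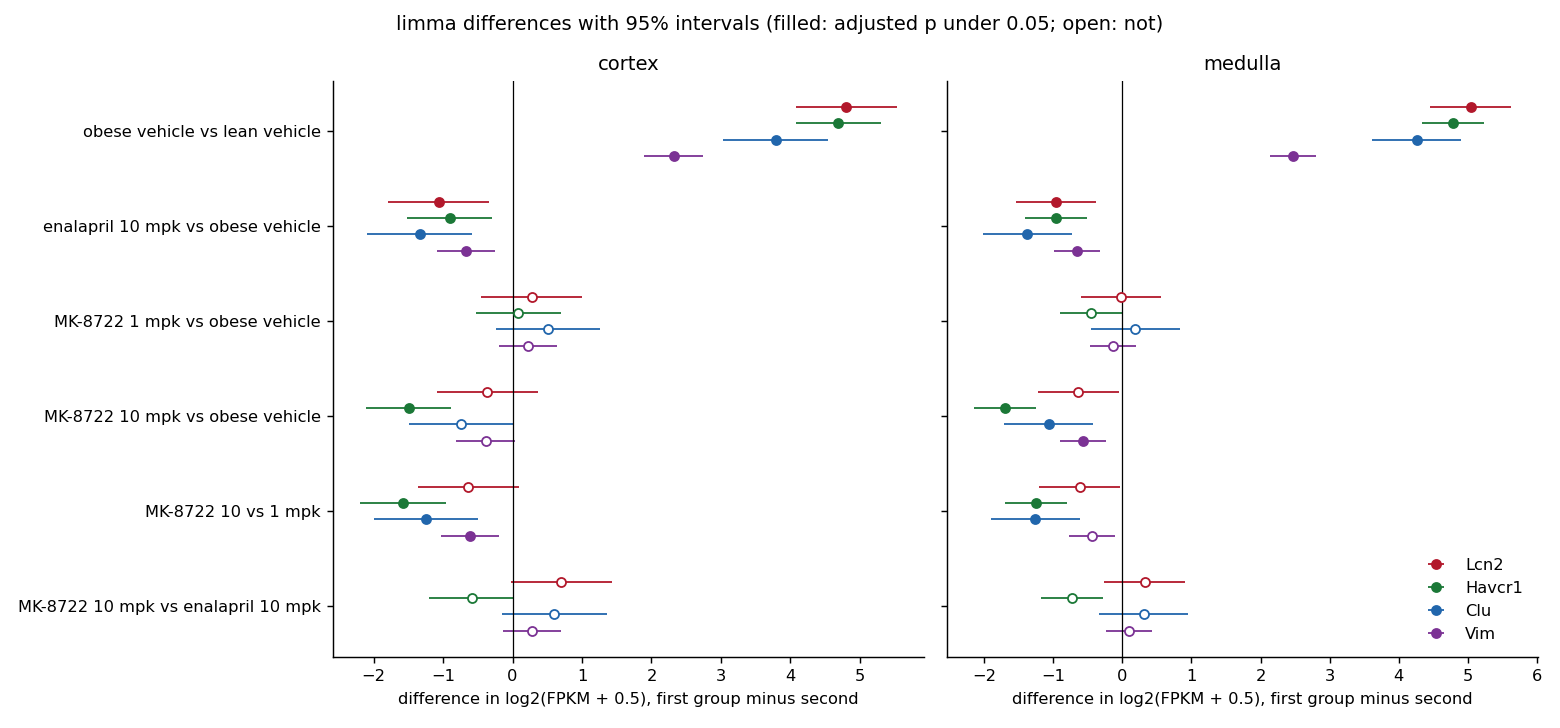
limma differences in log2(FPKM + 0.5) with 95% intervals for the 4 genes in 6 comparisons per tissue, filled where the adjusted p was under 0.05. The rises with obesity span 2.32 to 5.04, the enalapril differences -0.66 to -1.37, and the largest fall with MK-8722 at 10 mpk is that of Havcr1, at -1.50 in cortex and -1.69 in medulla.

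With enalapril all 4 transcripts were lower than in obese vehicle rats, in cortex and in medulla. Clu had the largest log2 difference in each tissue. Of its within-library ratios to the other members, only that with Lcn2 in medulla passed the ratio tests given below. Its lead in cortex is thus an order of estimates. Clu measured 349, 196, 219, 214 and 238 FPKM in enalapril cortex, a mean of 243 ± 61.0 against 657 ± 267 in obese vehicle cortex, and its log2 difference was -1.34 ± 0.362 (SE; limma, adjusted p = 0.0261). Of the 5 enalapril libraries 4 lay below the lowest obese vehicle library. In medulla Clu measured 394, 613, 362, 365 and 420 FPKM, all below the lowest obese vehicle value of 705, with a difference of -1.37 ± 0.311 (adjusted p = 0.0188).

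Lcn2 in enalapril cortex measured 40.2, 19.7, 18.7, 20.8 and 18.5 FPKM, with 4 of 5 libraries below every obese vehicle library and a log2 difference of -1.06 ± 0.350 (SE; limma, adjusted p = 0.0459). In medulla it measured 50.2, 92.0, 54.8, 48.3 and 48.1 FPKM, a difference of -0.96 ± 0.281 (adjusted p = 0.036). In each tissue 1 enalapril library stood apart from the other 4 at a higher value. Havcr1 was close to 0.5 times its obese vehicle mean in both tissues. It measured 8.63, 10.1, 7.58, 6.32 and 10.8 FPKM in enalapril cortex and 11.9 to 15.4 FPKM in medulla, and neither group overlapped obese vehicle, which held for 5.04% and 7.14% of genes. Its log2 differences were -0.91 ± 0.297 and -0.96 ± 0.217 (SE; limma, adjusted p = 0.0447 and 0.0181). Vim, the filament gene, had means of 86.8 ± 13.3 and 113 ± 7.41 FPKM (SD, n = 5), with log2 differences of -0.67 ± 0.203 and -0.66 ± 0.161 (adjusted p = 0.0356 and 0.0204).

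With enalapril 13.9% of genes were called lower and 0.479% higher in cortex, and 9.06% and 1.57% in medulla, against 4 of 4 members lower in both. The members covary within groups, so their calls are not independent, here and in the counts of members that follow. The middle gene was shifted by -0.18 (log2) in cortex and by -0.14 in medulla. In cortex the 4 calls were lost after rescaling, where 112 genes were up and 172 down, and lost with relative depth as a term. A limma fit of the compared groups alone lost Lcn2 and Vim (adjusted p = 0.0821 and 0.0519). The 4 calls were also lost without any one of enalapril replicates 2, 4, 6 or 7 or obese vehicle replicates 1, 2 or 6, at adjusted p up to 0.146, while all 4 held when the analysis kept only the libraries of the lower number range. In medulla the calls of Havcr1, Clu and Vim held after rescaling (-0.82, -1.23 and -0.52), where 328 genes were up and 244 down, and with relative depth as a term (-0.92, -1.31 and -0.61). Leaving out enalapril replicate 5, or replicate 7 of obese vehicle, ended these 3 calls, at adjusted p between 0.078 and 0.0877. Lcn2 in medulla was lost without any of 7 of the 10 libraries and after rescaling (-0.82, adjusted p = 0.0623).

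MK-8722 at 1 mpk left the 4 transcripts near their obese vehicle levels, and none was called. No gene of the table was called in either tissue, so the background is 0% (limma), with 583 genes in cortex and 577 in medulla at an unadjusted p under 0.05. In cortex Clu had the highest mean of all cortex groups, 871 ± 172 FPKM (SD, n = 5), and a log2 difference of 0.51 with a 95% interval of -0.24 to 1.26. The intervals were -0.45 to 1.00 for Lcn2, -0.53 to 0.70 for Havcr1 and -0.20 to 0.64 for Vim. These intervals leave room for changes of up to about 1 log2 unit upward for Lcn2 and Clu, so the low dose is not shown to be without effect. In medulla Havcr1 ran from 16.1 to 21.4 FPKM (mean 18.9 ± 2.36, SD, n = 5) against 20.9 to 30.9 in obese vehicle libraries, with 3 of 5 below every obese vehicle library. Its difference there was -0.45, with an interval of -0.90 to 0.0011 and an unadjusted limma p of 0.0505. The medulla differences of Lcn2, Clu and Vim were -0.019, 0.19 and -0.13, with adjusted p near 1.

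At 10 mpk MK-8722 lowered Havcr1 in both tissues, while Lcn2 was not called in either. Havcr1 measured 10.6, 5.59, 2.07, 9.59 and 3.94 FPKM in cortex, a mean of 6.35 ± 3.64, and 4.98, 8.10, 8.99, 4.18 and 16.4 FPKM in medulla, a mean of 8.54 ± 4.86 (SD, n = 5). None of these libraries reached the lowest obese vehicle library of its tissue, 11.3 and 20.9 FPKM, a separation seen for 6.36% and 8.13% of genes. The log2 differences were -1.50 ± 0.297 in cortex and -1.69 ± 0.217 in medulla (SE; limma, adjusted p = 0.00149 and 6.54e-05), which rank 28 of 13579 and 13 of 14195 by size. Havcr1 was at 0.371 times its obese vehicle mean in cortex and 0.329 times in medulla.

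Lcn2 measured 58.8, 25.7, 18.9, 71.9 and 32.9 FPKM in cortex at 10 mpk, which spans the whole range of obese vehicle (24.6 to 70.4). Its log2 difference was -0.36 ± 0.350 in cortex, with a 95% interval of -1.09 to 0.36, and -0.63 ± 0.281 in medulla, with an interval of -1.22 to -0.05 (SE; limma, adjusted p = 0.449 and 0.109). Clu measured 672, 297, 140, 789 and 280 FPKM in cortex, where its difference of -0.74 was not called (adjusted p = 0.129). It had a mean of 599 ± 322 FPKM in medulla (SD, n = 5), a difference of -1.07 that was called (limma, adjusted p = 0.0237). The Vim difference was -0.39 in cortex and not called (adjusted p = 0.152), while that in medulla was -0.57 and called (adjusted p = 0.0197). For each gene and tissue the highest library at 10 mpk was a larger multiple of the lowest than in any other obese group, for Clu in cortex 5.62 times, against 3.38 times in obese vehicle and 1.78 times with enalapril. Clu in cortex was called without 10 mpk replicates 2 or 6 or obese vehicle replicate 5 (lowest adjusted p = 0.0273), Vim in cortex without 10 mpk replicate 6 or obese vehicle replicate 5 (0.0286), and Lcn2 in medulla without 10 mpk replicate 6 (0.0494).

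At 10 mpk 24.5% of genes were called lower and 2.12% higher in cortex, and 16.5% and 1.6% in medulla, against 1 of 4 and 3 of 4 members lower. After rescaling the calls were 587 up and 496 down in cortex and 451 up and 294 down in medulla. The Havcr1 calls held after rescaling (-1.30 and -1.51), without each library in turn (-1.72 to -1.19 in cortex, -1.96 to -1.49 in medulla), and in cortex with the library number range as a term (-1.31) and within the lower range (-1.17). The higher range held 3 of the 5 cortex libraries at 10 mpk and 1 of the 5 of obese vehicle. The lower range thus kept few treated libraries. In cortex Havcr1 was no longer called with relative depth as a term (-0.94, adjusted p = 0.0909) or in a limma fit of the compared groups alone (-1.50, adjusted p = 0.0523), where the medulla call held (adjusted p = 0.0248). With the replicate number as a block in that fit, Havcr1 was called in cortex (-1.43; limma, adjusted p = 0.0464) and 2078 genes were called in place of 515, and the labels state no such pairing. The medulla calls of Clu and Vim were lost after rescaling (adjusted p = 0.0704 and 0.102), with relative depth as a term, in the fit of the compared groups alone, and without obese vehicle replicate 7 or MK-8722 10 mpk replicates 1 or 5, and Clu also without obese vehicle replicates 4 or 6.

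**Figure D3:**
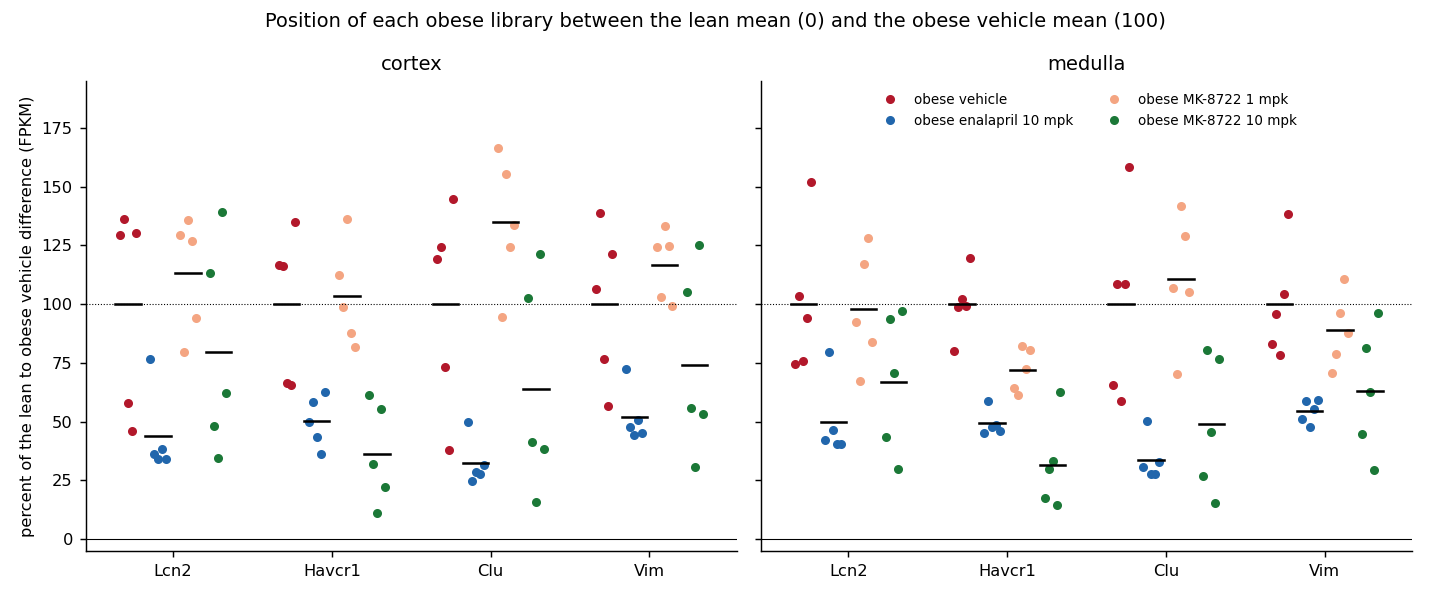
Position of each obese library between the lean mean (0%) and the obese vehicle mean (100%) of its tissue, on the FPKM scale, with a line at each group mean. With enalapril the mean is lowest for Clu (32.5% in cortex, 33.9% in medulla), and with MK-8722 at 10 mpk it is lowest for Havcr1 (36.5% and 31.7%) and highest for Lcn2 (79.6% and 66.9%).

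Read as the share of the lean-to-obese difference that was left, the drugs at 10 mpk left different amounts of each gene, a description with no test. With enalapril 43.9% was left for Lcn2, 50.2% for Havcr1, 32.5% for Clu and 52.2% for Vim in cortex. The medulla values were 49.9%, 49.3%, 33.9% and 54.5%. With MK-8722 at 10 mpk 79.6% was left for Lcn2, 36.5% for Havcr1, 63.9% for Clu and 74.1% for Vim in cortex. The matching medulla shares were 66.9%, 31.7%, 49.1% and 62.9%. The cortex libraries at 10 mpk ranged from 34.7% to 139% for Lcn2 and from 11.2% to 61.3% for Havcr1.

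Compared directly with enalapril, MK-8722 at 10 mpk gave no called difference for any member (limma), where 9.63% of genes were called in either direction in cortex and 2.73% in medulla. In medulla 116 genes were called higher and 272 lower, and 180 and 103 after rescaling. Havcr1 gave -0.59 in cortex (95% interval -1.21 to 0.02, adjusted p = 0.261) and -0.73 in medulla (-1.18 to -0.28, adjusted p = 0.0737), and Lcn2 gave 0.70 and 0.32 (adjusted p = 0.256 and 0.664). Leaving out MK-8722 10 mpk replicate 6, the library at 16.4 FPKM, made the medulla difference of Havcr1 a call (adjusted p = 0.00211). Clu and Vim had differences of 0.60 and 0.28 in cortex and 0.31 and 0.092 in medulla.

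Between the doses of MK-8722, Havcr1 was lower at 10 than at 1 mpk, with log2 differences of -1.58 ± 0.297 in cortex and -1.24 ± 0.217 in medulla (SE; limma, adjusted p = 0.00165 and 0.00376). Clu was also lower, at -1.24 ± 0.362 and -1.26 ± 0.311 (adjusted p = 0.0161 and 0.0248). Vim was called in cortex, at -0.61 (adjusted p = 0.0289), and not in medulla, at -0.44 (adjusted p = 0.0949), and Lcn2 was called in neither, at -0.64 and -0.62 (adjusted p = 0.161 and 0.173). The background of genes called lower was 28% in cortex and 4.9% in medulla, against 3 of 4 and 2 of 4 members. After rescaling the calls were 708 up and 607 down in cortex and 249 up and 160 down in medulla. The Havcr1 calls held without each library in turn, and in a limma fit of the compared groups alone the cortex call held (adjusted p = 0.0275) and the medulla call was lost (adjusted p = 0.0833). That fit also lost Clu in both tissues (adjusted p = 0.0614 and 0.127) and Vim in cortex (adjusted p = 0.0818), which leaves only Havcr1 in cortex called. The background shares above belong to the main fit, and calls of the narrower fit cannot be set against them. In cortex, Clu was lost with relative depth as a term (-0.76, adjusted p = 0.286) and in the lower number range (adjusted p = 0.101), and Vim was lost in both of these, after rescaling (-0.38, adjusted p = 0.109) and with the number range as a term. The Clu call in cortex was lost without MK-8722 10 mpk replicate 5 (adjusted p = 0.064), and in medulla without 10 mpk replicates 1 or 5 or 1 mpk replicates 4 or 6. Vim in cortex was lost without any of 6 libraries, namely 10 mpk replicates 4, 5 and 7 and 1 mpk replicates 1, 4 and 6 (adjusted p up to 0.114), and Vim in medulla was called without 10 mpk replicates 2 or 6 (lowest adjusted p = 0.0199).

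A ratio of 2 genes within a library does not depend on how that library was scaled, so it shows whether Havcr1 moved differently from the other 3. The ratios were added after the gene values had been seen, and their tests describe a pattern already visible. In cortex the log2 ratio of Havcr1 to Lcn2 ran from -1.83 to -1.12 in obese vehicle libraries and from -3.19 to -2.20 at MK-8722 10 mpk. The ranges did not overlap, and the mean fell by 1.24 on the log2 scale (exact permutation test, two-sided, p = 0.00794, the smallest that 5 against 5 libraries allow, adjusted p = 0.028). The ratio to Vim fell by 1.21 and the ratio to Clu by 0.86, both without overlap and at the same p. In medulla the ratio to Lcn2 fell by 1.13 and the ratio to Vim by 1.20 (exact adjusted p = 0.028 for both), while the ratio to Clu fell by 0.70 and did not pass (exact adjusted p = 0.0549).

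Set against enalapril, the ratio of Havcr1 at MK-8722 10 mpk was lower by 1.37 to Lcn2, 1.26 to Clu and 0.94 to Vim in cortex, and by 1.10, 1.08 and 0.87 in medulla. All 6 passed (exact permutation test, adjusted p between 0.028 and 0.0454), and the cortex ratio to Lcn2, the only one of the 6 with overlapping ranges, was lost without any of 6 of 10 libraries. Enalapril itself left the ratio of Havcr1 to Lcn2 near that of obese vehicle, with differences of 0.13 in cortex and -0.025 in medulla (exact adjusted p = 0.732 and 0.881). At MK-8722 1 mpk the 3 Havcr1 ratios of each tissue had lower means than in obese vehicle, and of these 6 only the medulla ratio to Vim passed, lower by 0.33 (exact adjusted p = 0.028). The medulla ratio to Clu was lower by 0.65 with overlapping ranges (exact adjusted p = 0.0549), and the other 4 differed by -0.44 to -0.14. With enalapril the medulla ratio of Havcr1 to Vim was also lower than in obese vehicle by 0.33 (exact adjusted p = 0.028). Both were set against the same obese vehicle libraries. From 1 to 10 mpk of MK-8722 the ratio of Havcr1 to Clu differed by -0.44 in cortex and -0.051 in medulla (exact adjusted p = 0.085 and 0.881). Its ranges overlapped in both tissues, so the doses did not part Havcr1 from Clu by test. The ratios to Lcn2 and Vim differed by -1.04 and -1.08 in cortex and by -0.69 and -0.87 in medulla (exact adjusted p of 0.028 to 0.0454). In medulla these calls were lost without any of 8 and 3 of 10 libraries.

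Clu and Lcn2 parted between the doses of MK-8722, although neither dose passed against obese vehicle. From 1 to 10 mpk of MK-8722 the log2 ratio of Lcn2 to Clu rose by 0.60 in cortex and by 0.64 in medulla, without overlap between the groups (exact permutation test, adjusted p = 0.028 for both), and this held without each library in turn. Against obese vehicle the ratio differed by -0.23 in cortex and -0.21 in medulla at 1 mpk (exact adjusted p = 0.195 and 0.163). At 10 mpk it differed by 0.37 and 0.43 (exact adjusted p = 0.104 and 0.0549), and the ranges overlapped at both doses. In medulla enalapril raised it by 0.41 over obese vehicle (exact adjusted p = 0.0454), a call lost without any of 8 of 10 libraries. Over 60 ratio tests in 5 comparisons, 21 passed. How often ratios of other genes pass was not measured, so this count does not set the members apart. The 6 ratios of a comparison are built from the same 4 genes and share libraries, so their tests are not independent. The tests were first run on 36 ratios in 3 comparisons, of which 13 passed, and were widened by 24 after those results had been seen. All 13 passed in both families.

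**Figure D4:**
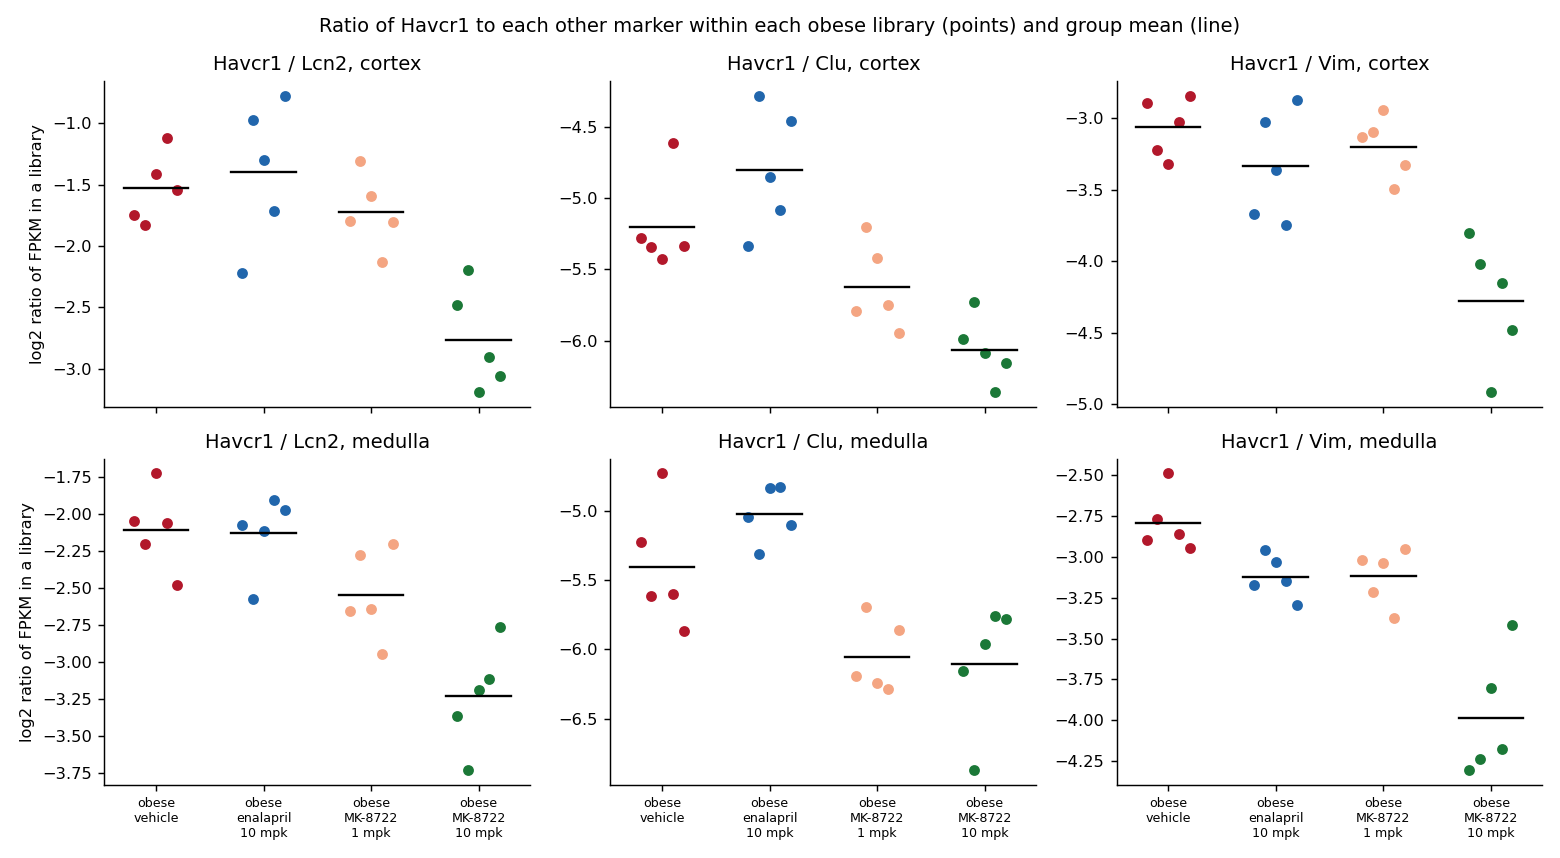
log2 ratio of the FPKM of Havcr1 to that of Lcn2, Clu and Vim within each obese library, by tissue and group, with points for libraries and lines for group means. The MK-8722 10 mpk libraries lie below all obese vehicle libraries in 5 of the 6 panels, the exception being Havcr1 to Clu in medulla.

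All 4 genes tended to be higher in medulla than in cortex. In lean rats Lcn2 was at 2.99 ± 0.898 FPKM in medulla and 1.27 ± 0.496 in cortex (SD, n = 5), a log2 difference of -0.98 ± 0.324 for cortex against medulla (SE; limma, adjusted p = 0.0136). Havcr1, Clu and Vim were not called in lean rats, at -0.54, -0.39 and -0.22. In obese vehicle rats Lcn2 differed by -1.21, with 24.6 to 70.4 FPKM in cortex and 86.3 to 172 in medulla (adjusted p = 0.00224), Clu by -0.86 (adjusted p = 0.038) and Havcr1 by -0.63 (adjusted p = 0.0485), while Vim at -0.38 was not called. The calls of Havcr1 and Clu were lost without any of 6 and 5 single libraries (adjusted p up to 0.16 and 0.193): obese vehicle cortex replicates 3 and 5 and medulla replicates 4, 6 and 7, and for Havcr1 also medulla replicate 5. Of all genes 28.4% were called lower in cortex in lean rats and 35.1% in obese vehicle rats. After rescaling 2758 genes were up and 2839 down in lean rats, and 3023 and 2717 in obese vehicle rats. The 4 member calls were all lost with relative depth as a term, those of Havcr1 and Clu after rescaling, and that of Clu in a limma fit of the compared groups alone (adjusted p = 0.0747). The change with obesity did not differ between the tissues by test for any member, with differences of -0.47 to -0.095 (limma, adjusted p of 0.693 or more), in a comparison that called 4.86% of genes. Nor was a difference between the tissues called in the effect of enalapril or of either dose of MK-8722 (adjusted p of 0.912 or more), where 0.00686%, 0% and 0.226% of genes were called. The fit of both tissues treated cortex and medulla libraries as unrelated, because the labels tie none to an animal. If the same rats gave both tissues, these tests ignored that pairing, and likeness between the tissues is not independent evidence.

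**Figure D5:**
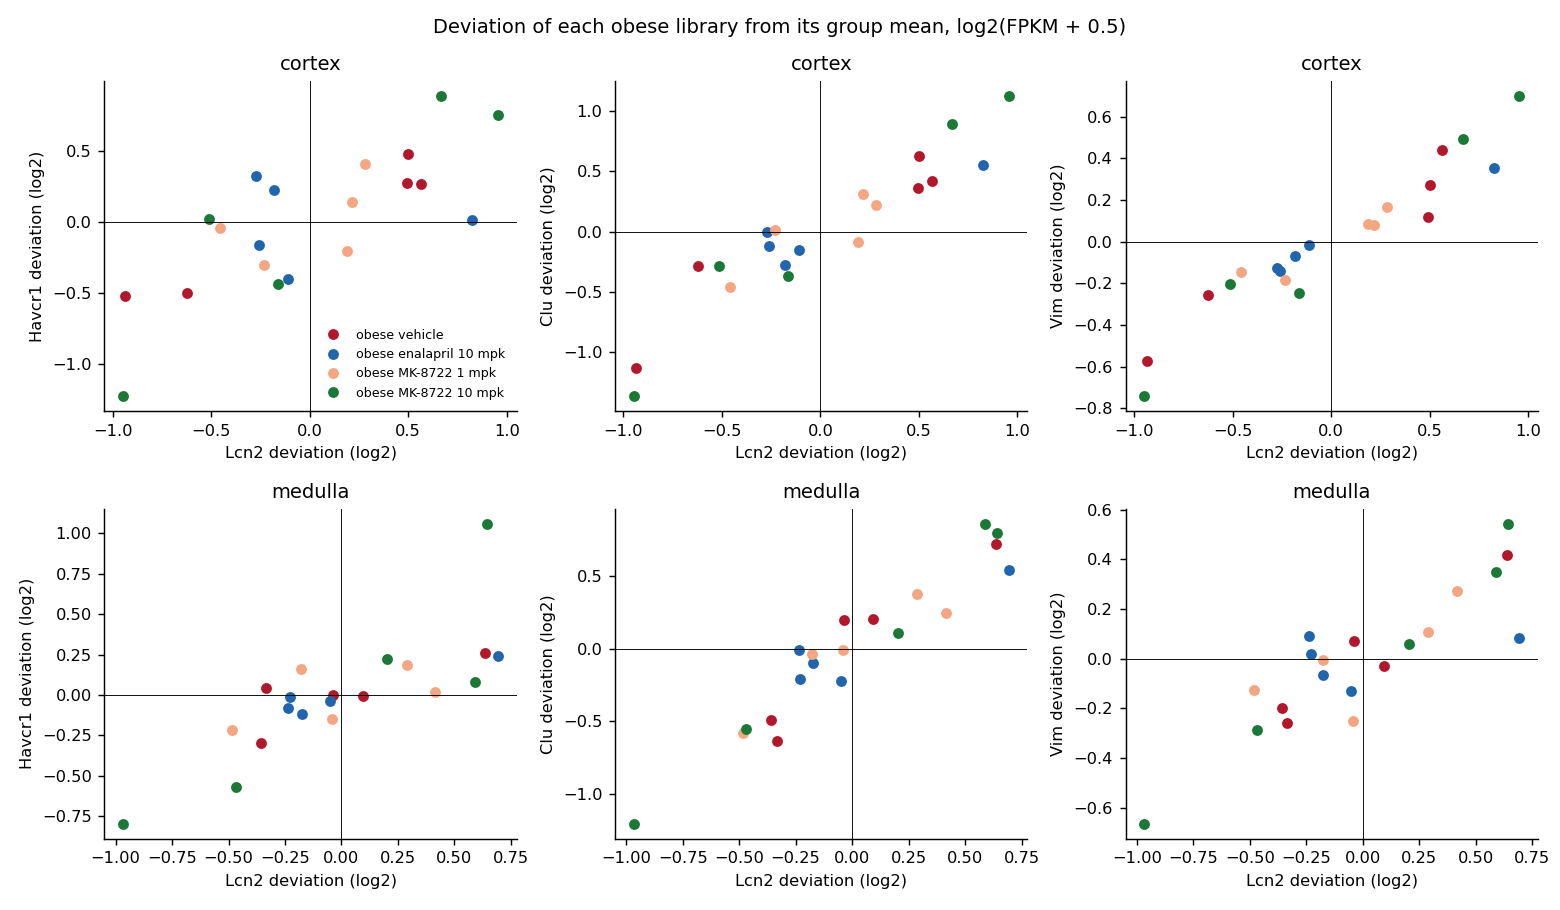
Deviation of each obese library from its group mean in log2(FPKM + 0.5) of Havcr1, Clu and Vim (vertical axes) against that of Lcn2 (horizontal axes), by tissue, with points for the 20 obese libraries of a tissue, coloured by group. The points lie closest to a line for Lcn2 with Vim in cortex (r = 0.96) and Lcn2 with Clu in medulla (r = 0.96), and more loosely for Lcn2 with Havcr1 (r = 0.77 in cortex, 0.79 in medulla).

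Within treatment groups, obese libraries that were high in 1 of the genes were high in the others. Over the 20 obese libraries of a tissue, with group means removed, Lcn2 and Vim had r = 0.96 in cortex (Spearman 0.95) and r = 0.88 in medulla (0.80). Clu and Vim had r = 0.96 and 0.92 (Spearman 0.92 and 0.90). The loosest pair in cortex was Lcn2 with Havcr1, at r = 0.77 (Spearman 0.71), and in medulla Havcr1 with Clu, at r = 0.78 (0.77). All 12 relations passed (permutation test within groups, adjusted p of 0.00378 or less for Pearson's r and 0.00887 or less for Spearman's rho). How often pairs of other genes relate this closely was not measured, so the count does not set these genes apart. Without the 2 libraries farthest from the median, r was between 0.66 and 0.95. The genes' deviations also ran against relative depth, with r of -0.61 to -0.51 in cortex and -0.54 to -0.26 in medulla, none of the 8 passing adjustment (permutation test, adjusted p of 0.0748 to 0.336), and the part of depth in the relations was not tested. After rescaling by the median ratio the 12 r values were 0.68 to 0.94.

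Likeness was also measured over all 50 libraries, as Pearson's r of log2(FPKM + 0.5) among 13215 genes, a value set largely by the gap between lean and obese libraries. The gene most like Vim was ENSRNOG00000042499, at r = 0.99, and it was also the second most like Clu, at r = 0.99. The gene most like Lcn2 was ENSRNOG00000020845, at r = 0.98. Both are given by ID because the sources used here do not pair them with names. Among the members, Vim ranked 5 for Havcr1 (r = 0.97) and 6 for Clu (r = 0.99), and Vim ranked 26 for Lcn2 (r = 0.97).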

How the data were processed

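The authors deposited 1 table of FPKM values for 32545 Ensembl gene IDs in 50 libraries, per the file headers. Libraries were stranded and depleted of ribosomal RNA, per the labels' protocols. Names of the aligner, counter and build were not given in the sources used here. Columns were matched to samples by the library number of the labels.

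FPKM are not counts, so log2(FPKM + 0.5) was fitted with limma 3.58.1 (R 4.3.3, trend and robust) on the 25 libraries of a tissue, or on all 50 for tissue differences. A gene was tested if 5 libraries or more reached 1 FPKM, and was called at an adjusted p under 0.05 (two-sided, Benjamini-Hochberg, across the whole tested table). Within-library ratios used log2 FPKM without a pseudocount, compared by exact permutation (two-sided) and adjusted as a family of 60. Relations used permutation within groups with 100000 resamples. Relative depth came from the steps of low values, of which 95.0% of 60311 lay within 0.1 reads of a whole number. The value taken for a read was chosen gene by gene to make that share highest. No chance level was computed for it, so the share is no test of the depths. Depth limits the precision of low values such as Havcr1 in lean rats.

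The members and lists were chosen with earlier results of these data known. Named genes were the 4 members and, by rule, the 2 genes most like each, of which only 2 IDs are printed because no names pair with them. The lists of other injury genes, receptors, regulators and cell type markers could not be matched to IDs and were not run. The ratios, their widening from 36 to 60 tests and the relations to depth were added after the data had been seen. Replicate numbers recur across groups. Only in cortex, between MK-8722 10 mpk and obese vehicle, did every same-numbered pair correlate above 0.1, the level taken for pairing (3 pairs, r of 0.24 to 0.41 across genes, 2 of 3 best with their own number), so the numbers may pair there, although the labels state no pairing. Between those groups replicates 2 and 5 also shared a library number range, while replicate 6 did not. The part of number range and depth in these correlations was not tested. Alternatives were another pseudocount, no filter, median-ratio rescaling, no robust moderation, relative depth or library number range as a term, the lower number range alone, the compared groups alone, the replicate block, and leaving out each library. In cortex 8 libraries had numbers in a higher range, in medulla 0.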

Additional observations from a re-analysis of the deposited data

Results flagged for a closer look

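In 6 of 40 sets of 5 libraries (1 gene in 1 group) the highest library stood apart from the other 4 by Dixon's criterion at 95%. Chance alone meets it in about 1 set of 20 if values are normal and both ends are counted. All 6 came from enalapril groups. In cortex it was replicate 1, at 40.2 FPKM for Lcn2, 349 for Clu and 110.0 for Vim. In medulla it was replicate 3, at 92.0 FPKM for Lcn2, 613 for Clu and 15.4 for Havcr1. The 4 genes covary within groups, so these 6 values come from 2 libraries and are not independent. The gap to the next library was 0.729 to 0.895 of the group's range, against a critical value of 0.71.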

How the results depend on the processing

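All rises of the 4 genes in obese groups over lean rats kept their direction and call in each alternative run. Values below are log2 differences, the cause of a lost or gained call was not tested, and depth limits low values such as Havcr1 in lean rats. With a pseudocount of 0.1, calls were lost for enalapril in cortex Lcn2 (-1.08) and Havcr1 (-0.94), for cortex against medulla in obese vehicle rats Havcr1 (-0.65). There calls were gained for cortex against medulla in lean rats Havcr1 (-1.17). There uncalled values changed sign for the tissue difference of the genotype effect Havcr1 (0.53). Without the filter on low values, calls were lost for enalapril in cortex Lcn2 (-1.06), Havcr1 (-0.91) and Vim (-0.67), for enalapril in medulla Lcn2 (-0.96), for cortex against medulla in obese vehicle rats Havcr1 (-0.63) and Clu (-0.86). After median-ratio rescaling, calls were lost for enalapril in cortex Lcn2 (-0.86), Havcr1 (-0.71), Clu (-1.14) and Vim (-0.47), for MK-8722 10 against 1 mpk in cortex Vim (-0.38), for enalapril in medulla Lcn2 (-0.82), for MK-8722 10 mpk in medulla Clu (-0.88) and Vim (-0.38), for cortex against medulla in obese vehicle rats Havcr1 (-0.44) and Clu (-0.66). There uncalled values changed sign for MK-8722 1 mpk in medulla Lcn2 (0.037), for the tissue difference of the genotype effect Havcr1 (0.096), for the tissue difference of the enalapril effect Vim (0.051). With relative depth as a term, calls were lost for enalapril in cortex Lcn2 (-0.69), Havcr1 (-0.52), Clu (-0.96) and Vim (-0.44), for MK-8722 10 mpk in cortex Havcr1 (-0.94), for MK-8722 10 against 1 mpk in cortex Clu (-0.76) and Vim (-0.32), for MK-8722 10 mpk in medulla Clu (-0.83) and Vim (-0.39), for cortex against medulla in lean rats Lcn2 (-0.60), for cortex against medulla in obese vehicle rats Lcn2 (-0.73), Havcr1 (-0.19) and Clu (-0.36). There uncalled values changed sign for MK-8722 10 mpk in cortex Lcn2 (0.18), for MK-8722 1 mpk in medulla Lcn2 (0.090), for cortex against medulla in lean rats Clu (0.0058) and Vim (0.037), for the tissue difference of the genotype effect Havcr1 (0.0018), for the tissue difference of the enalapril effect Lcn2 (0.19) and Vim (0.19). In fits of the compared groups alone, calls were lost for enalapril in cortex Lcn2 (-1.06) and Vim (-0.67), for MK-8722 10 mpk in cortex Havcr1 (-1.50), for MK-8722 10 against 1 mpk in cortex Clu (-1.24) and Vim (-0.61), for MK-8722 10 mpk in medulla Clu (-1.07) and Vim (-0.57), for MK-8722 10 against 1 mpk in medulla Havcr1 (-1.24) and Clu (-1.26), for cortex against medulla in obese vehicle rats Clu (-0.86). There calls were gained for cortex against medulla in lean rats Clu (-0.39) and Vim (-0.22). With the library number range as a term, calls were lost for MK-8722 10 against 1 mpk in cortex Vim (-0.51). In the lower number range alone, calls were lost for MK-8722 10 against 1 mpk in cortex Clu (-0.93) and Vim (-0.51). Removing robust moderation changed no call of a member.

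The replicate block was fitted on the compared groups alone and is set here against that fit without the block. In cortex between MK-8722 10 mpk and obese vehicle, where the numbers may pair the libraries, Havcr1 was called with the replicate block (-1.43; limma, adjusted p = 0.0464) and not without it (adjusted p = 0.0523), and 2078 genes were called in place of 515. With the replicate block and relative depth together Havcr1 was not called (-1.87). In the other comparisons the libraries share only a number. Called without the block and not with it were MK-8722 10 against 1 mpk in cortex Havcr1 (-1.24), enalapril in medulla Lcn2 (-0.89), Havcr1 (-0.94), Clu (-1.30) and Vim (-0.65), and MK-8722 10 mpk in medulla Havcr1 (-1.45). Called in neither of these fits were MK-8722 10 against 1 mpk in cortex Clu (-0.82) and Vim (-0.40) and in medulla Havcr1 (-0.94) and Clu (-0.77), and MK-8722 10 mpk in medulla Clu (-0.86) and Vim (-0.46). Called with the block and not without it were enalapril in cortex Lcn2 (-1.41) and Vim (-0.86), MK-8722 10 mpk against enalapril in cortex Lcn2 (1.15), and cortex against medulla in obese vehicle rats Clu (-0.81) and Vim (-0.43). Called in both were cortex against medulla in lean rats Clu (-0.47) and Vim (-0.22). With the block, uncalled values changed sign for MK-8722 1 mpk in cortex Lcn2 (-0.26), Havcr1 (-0.29), Clu (-0.042) and Vim (-0.048), and for the tissue difference of the enalapril effect Havcr1 (-0.0039) and Clu (-0.23).

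Leaving out each library in turn moved a call or a sign for these results. For MK-8722 10 against 1 mpk in cortex the range was Vim -0.78 to -0.42 and Clu -1.52 to -0.90. For MK-8722 1 mpk in cortex the range was Havcr1 -0.048 to 0.20. For MK-8722 10 mpk in cortex the range was Clu -1.02 to -0.39 and Vim -0.56 to -0.20. For enalapril in cortex the range was Lcn2 -1.30 to -0.92, Havcr1 -1.04 to -0.79, Clu -1.62 to -1.18 and Vim -0.81 to -0.56. For MK-8722 1 mpk in medulla the range was Lcn2 -0.12 to 0.14. For MK-8722 10 against 1 mpk in medulla the range was Clu -1.47 to -0.95 and Vim -0.57 to -0.27. For MK-8722 10 mpk in medulla the range was Clu -1.28 to -0.77, Vim -0.70 to -0.40 and Lcn2 -0.80 to -0.39. For MK-8722 10 mpk against enalapril in medulla the range was Havcr1 -0.99 to -0.53 and Vim -0.044 to 0.26. For enalapril in medulla the range was Lcn2 -1.13 to -0.80, Havcr1 -1.04 to -0.90, Clu -1.53 to -1.19 and Vim -0.72 to -0.55. For the tissue difference of the genotype effect the range was Havcr1 -0.21 to 0.036 and Lcn2 -0.37 to 0.0011. For the tissue difference of the MK-8722 10 mpk effect the range was Havcr1 -0.026 to 0.50. For the tissue difference of the enalapril effect the range was Clu -0.25 to 0.19, Vim -0.15 to 0.099, Havcr1 -0.074 to 0.18 and Lcn2 -0.34 to 0.068. For cortex against medulla in obese vehicle rats the range was Vim -0.49 to -0.23, Havcr1 -0.75 to -0.50 and Clu -1.02 to -0.58. The ratio of Havcr1 to Clu in medulla between MK-8722 10 and 1 mpk, never called, changed sign with a pseudocount of 0.5 (0.011). Numbers of genes called ranged across alternatives from 1 to 4531 for enalapril and 5 to 5188 for MK-8722 10 mpk against obese vehicle in cortex, and from 3 to 2347 and 19 to 3244 in medulla. They ranged from 4 to 5213 in cortex and 0 to 1593 in medulla between the doses of MK-8722, from 225 to 1466 and 15 to 609 for 10 mpk against enalapril, and from 4859 to 9081 and 4692 to 10560 for obese against lean vehicle.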

Other observations

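At MK-8722 10 mpk the same replicate numbers stood at the ends of the range in both tissues for Lcn2, Clu and Vim, and at the low end for Havcr1, although the labels do not say that a number marks an animal. Only the numbers 2, 5 and 6 occur in both tissues of this group, so no others could agree. Replicate 5 was lowest for Lcn2 (18.9 FPKM in cortex, 36.2 in medulla), Clu (140 and 226), Vim (62.5 and 75.6) and Havcr1 (2.07 and 4.18). Replicates 2 and 6 were the highest for Lcn2 (58.8 and 71.9 in cortex, 107 and 111 in medulla), for Clu (672 and 789 in cortex, 948 and 905 in medulla) and for Vim (148 and 170 in cortex, 153 and 175 in medulla). They were also the highest for Havcr1 in cortex (10.6 and 9.59), whereas in medulla replicate 6 (16.4) was followed by replicate 3 (8.99) and then replicate 2 (8.10). Relative depth of replicates 2, 5 and 6 was 1.03, 1.43 and 1.51 in cortex and 0.746, 0.928 and 0.844 in medulla. These numbers were picked out after their values had been seen, and no test was run.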
